A study of Mus musculus with 8 samples.

Results

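The mevalonate pathway enzymes on the way to squalene were followed in the liver of mice with and without Abhd15. The set was defined by name as 9 genes (Acat2, Hmgcs1, Mvk, Pmvk, Mvd, Idi1, Fdps, Fdft1 and Ggps1). The array reports each gene through transcript clusters. A gene was measured where a cluster carried its symbol and no other, and this held for 7 of the 9 genes, out of 22180 genes on the array. Acat2 had no such cluster, and the cluster that names Idi1 names another gene as well, so neither was analysed here. Each of the 7 had exactly 1 cluster. The samples were whole livers of male C57BL/6J mice fed normal chow, 3 wild-type (WT) and 5 Abhd15 knockout (KO), with 1 Mouse Gene 2.0 ST array for each. The series text gives an age of 14 weeks and an overnight fast before 1 hour of refeeding on chow, while the sample labels give up to 14 weeks on the diet. No Cre, transgene or drug is named for either group, and the sources used here do not say how the knockout was made. All values are log2 expression values as deposited.

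The mevalonate pathway turns acetyl-CoA in the cytosol into isoprenoid units. HMG-CoA synthase makes HMG-CoA, the kinases Mvk and Pmvk phosphorylate mevalonate in sequence, and Mvd decarboxylates the product to isopentenyl diphosphate. Fdps then joins isoprenoid units into farnesyl diphosphate, which stands at a branch point. Fdft1, squalene synthase, commits farnesyl diphosphate to sterols, whereas Ggps1 lengthens it to geranylgeranyl diphosphate, a lipid attached to small GTPases and other proteins. Liver is a main site of sterol synthesis, and the transcription factor SREBP-2, which works together with NF-Y and SP1 at many promoters, is the best known activator of these genes.

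RefSeq promoter entries on GRCm38.p6 were found for 5 of the 7 measured genes. Upstream sequences are shown for Hmgcs1, the enzyme with the largest difference between the groups, for Mvk and Mvd, which also read lower in KO, and for Ggps1, which read higher. They cover the 250 bases before the annotated start on the gene's own strand, at chr13:119690101-119690350 (plus strand) for Hmgcs1, chr5:114444019-114444268 (plus strand) for Mvk, chr8:122443423-122443672 (minus strand) for Mvd and chr13:14063489-14063738 (minus strand) for Ggps1. Capitals mark matches, on either strand, to the SREBP element TCACNCCAC, the NF-Y box CCAAT or the GC box GGGCGG bound by SP1. No match overlapped another.

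Hmgcs1: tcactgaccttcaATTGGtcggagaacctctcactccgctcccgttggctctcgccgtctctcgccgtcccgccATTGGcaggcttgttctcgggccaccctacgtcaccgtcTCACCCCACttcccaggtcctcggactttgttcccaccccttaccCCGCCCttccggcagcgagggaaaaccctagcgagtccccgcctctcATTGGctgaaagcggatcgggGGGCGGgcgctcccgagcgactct

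Mvk: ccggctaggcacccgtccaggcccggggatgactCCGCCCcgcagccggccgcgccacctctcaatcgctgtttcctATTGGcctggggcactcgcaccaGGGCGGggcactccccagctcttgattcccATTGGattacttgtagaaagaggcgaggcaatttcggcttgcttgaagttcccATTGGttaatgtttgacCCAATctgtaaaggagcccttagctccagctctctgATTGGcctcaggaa

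Mvd: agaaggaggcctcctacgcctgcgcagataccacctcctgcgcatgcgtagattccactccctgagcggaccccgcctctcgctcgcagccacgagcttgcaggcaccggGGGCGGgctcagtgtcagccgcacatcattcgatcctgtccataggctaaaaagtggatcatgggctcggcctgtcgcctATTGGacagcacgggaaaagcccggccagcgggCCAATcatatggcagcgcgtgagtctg

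Ggps1: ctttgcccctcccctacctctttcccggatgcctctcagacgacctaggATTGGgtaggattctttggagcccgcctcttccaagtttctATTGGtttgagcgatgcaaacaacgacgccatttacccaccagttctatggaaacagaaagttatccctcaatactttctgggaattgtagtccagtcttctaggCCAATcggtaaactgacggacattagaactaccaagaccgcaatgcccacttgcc

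The search window ran from 250 bases before to 50 bases after the start. Hmgcs1 had 1 SREBP element, whose first base lies 137 bases before the start, together with 4 NF-Y boxes and 3 GC boxes. Of these, 1 NF-Y box and 1 GC box follow the start and so lie outside the sequence shown. The SREBP element occurred in 1.24% of all 32851 promoters of the table, the NF-Y box in 37.4% and the GC box in 35.7%. Mvk had 5 NF-Y boxes and 2 GC boxes, where 1.06% of all promoters held at least 4 NF-Y boxes. Mvd had 2 NF-Y boxes and 1 GC box. Ggps1 had 3 NF-Y boxes, which 3.37% of all promoters equalled or exceeded, and no match to the GC box. Pmvk has a pair of annotated starts, of which the first had 1 NF-Y box and no GC box. The second had no match to any of the 3 motifs. Of the measured genes with an entry, only Hmgcs1 matched the SREBP element, and Mvk, Pmvk, Mvd and Ggps1 all lacked it. A match is a string of letters and not a binding site, and a missing match says only that these letters are not in the window.

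**Figure D1:**
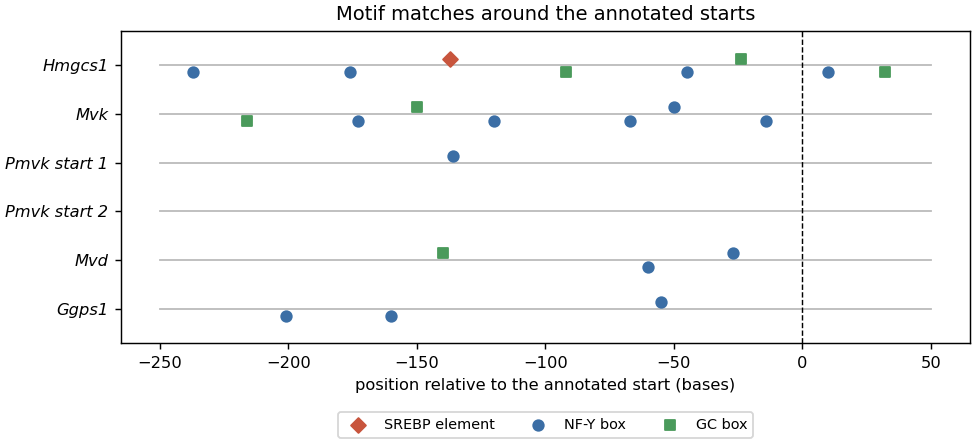
Position of motif matches (x axis, bases relative to the annotated start, dashed line at 0) in the promoter windows of the 5 measured genes with a RefSeq entry, with Pmvk at each of its starts. Symbols above a line match the gene's own strand and symbols below it the opposite strand; the SREBP element appears in Hmgcs1, 137 bases before the start, and NF-Y boxes in all windows except the second start of Pmvk.

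Before the enzymes, the arrays themselves were compared. The array medians lay between 2.99 and 3.05, and the correlation between any pair of arrays over all 41345 clusters lay between 0.962 and 0.971, where clusters are not independent replicates. For Abhd15 itself the WT mean was 5.64 ± 0.176 (SD, n = 3) against a KO mean of 5.12 ± 0.0775 (SD, n = 5). KO minus WT was therefore -0.52 (SE 0.129) on the log2 scale, and each KO array was below each WT array. The same held for 2.44% of the 23521 clusters with a single symbol. In limma's test, described below, the adjusted p of Abhd15 was 0.795. Abhd15 had 2 clusters, and these values are those of the brighter one. KO arrays 1 and 2 stood apart from the others on the first principal component, at 35.7 and 32.1 against 0.661 for the next array, and KO array 4 stood apart on the second, at 41.8 against 4.16. Nothing in the labels says whether the samples are separate litters or cages, so p-values measure only the spread between these samples.

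Of the 7 measured enzymes, the 6 on the route to squalene read lower in KO on average, and Ggps1, the enzyme of the geranylgeranyl branch, read higher. Their median log2 difference was -0.49, beside -0.002 over the 23521 clusters with a single symbol. In limma's test across all of these clusters, 0 of the 7 enzymes passed an adjusted p of 0.05, as did 0% of all clusters. At an unadjusted p under 0.05 there were 4 enzymes lower in KO (Hmgcs1, Mvk, Mvd and Fdps) and 1 higher (Ggps1), while 3.32% of all clusters were lower and 2.75% higher by that rule. Hmgcs1 and Mvk stayed under 0.05 in all alternatives that gave them a value, and Fdps in 15 of 17. Mvd did so in 7 of 16, with p up to 0.22 without WT array 3, and Ggps1 in 8 of 17, with p up to 0.14 without WT array 2, so both counts depend on the processing and on single arrays. Fdft1, not among them, was under 0.05 in 7 of 17. The smallest adjusted p of the set was 0.619, for Hmgcs1. Differences below are given as KO minus WT on the log2 scale with limma's standard error, next to a two-sided exact permutation test over the 56 splits of the arrays, whose smallest possible p is 0.0179.

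**Figure D2:**
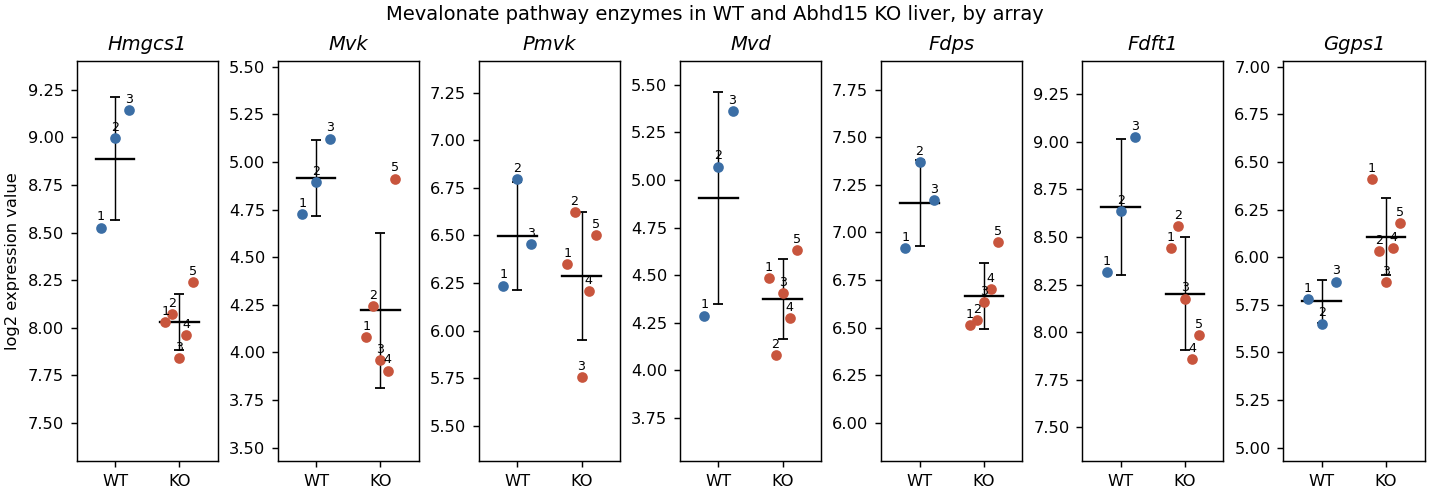
Log2 expression value (y axis, each panel spanning the same range around the gene's mean) of the 7 measured enzymes in pathway order, with 1 point per array labelled by its replicate number, a line at the group mean and bars of 1 SD (n = 3 WT, n = 5 KO). All 5 KO arrays lie below the WT arrays for Hmgcs1, the groups overlap for the other enzymes, and Ggps1 is the enzyme with the higher KO mean.

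Hmgcs1, the cytosolic HMG-CoA synthase, opens the measured part of the pathway and had the largest difference. Its values were 8.527, 8.997 and 9.144 in WT, against KO values of 8.03, 8.07, 7.84, 7.96 and 8.24. The groups did not overlap, with a gap of 0.288 between WT array 1, the lowest of its group, and KO array 5, the highest of its own. The log2 difference was -0.86 (SE 0.165, 95% interval -1.23 to -0.50), or 1.82-fold, with an exact permutation p of 0.0179. Hmgcs1 ranked 12 among the 23521 clusters by limma's p. It was the 1 enzyme of the 7 whose KO arrays all lay below the WT arrays, where 2.44% of all clusters did so. The step between Hmgcs1 and Mvk, reduction of HMG-CoA to mevalonate, is not among the genes listed.

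Mvk, mevalonate kinase, read 4.73, 4.89 and 5.12 in WT and 4.08, 4.24, 3.96, 3.90 and 4.91 in KO. KO array 5 alone reached into the WT range, and the other 4 KO arrays lay below every WT array. KO minus WT was -0.69 (SE 0.224, 95% interval -1.19 to -0.20), or 1.62-fold, with an exact permutation p of 0.0893. Without KO array 5 it was -0.87. The level was modest, with 62.8% of clusters dimmer than Mvk.

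Mmab, which encodes an enzyme of vitamin B12 metabolism, was chosen after its values were seen. It is transcribed away from Mvk and its annotated start lies 242 bases from that of Mvk, so that the Mvk sequence above is the upstream region of both genes. Mmab read 5.31, 5.68 and 5.52 in WT and 5.11, 5.05, 5.27, 5.06 and 4.69 in KO. Unlike those of Mvk, its groups did not overlap (2.44% of all clusters in this direction). Its log2 difference was -0.46 (SE 0.158), given as a description with no test.

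Pmvk, phosphomevalonate kinase, which adds the next phosphate, had the smallest difference of the set. It read 6.24, 6.80 and 6.46 in WT and 6.35, 6.62, 5.75, 6.21 and 6.50 in KO. The groups overlapped widely, with KO arrays 3 and 4 below all WT arrays and the other 3 KO arrays inside the WT range. The log2 difference was -0.21 (SE 0.208), with a 95% interval from -0.67 to 0.25 and an exact permutation p of 0.411. The difference was -0.06 without WT array 2 and -0.08 without KO array 3.

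Mvd, mevalonate diphosphate decarboxylase, read 4.29, 5.07 and 5.36 in WT and 4.48, 4.08, 4.40, 4.27 and 4.63 in KO. WT array 1 lay among the KO arrays, while WT arrays 2 and 3 lay above all of them. KO minus WT was -0.53 (SE 0.229, 95% interval -1.04 to -0.03), or 1.45-fold, with an exact permutation p of 0.0893. Omitting WT array 1 gave -0.84, and omitting WT array 3 gave -0.30.

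Fdps, farnesyl diphosphate synthase, read 6.92, 7.37 and 7.17 in WT and 6.51, 6.54, 6.63, 6.70 and 6.95 in KO. The groups overlapped by 0.030, through WT array 1 and KO array 5. The log2 difference was -0.49 (SE 0.154, 95% interval -0.83 to -0.15), or 1.40-fold, with an exact permutation p of 0.0357.

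Fdft1, squalene synthase, read 8.32, 8.64 and 9.03 in WT and 8.44, 8.56, 8.18, 7.86 and 7.98 in KO. KO arrays 1 and 2 lay inside the WT range and the other 3 KO arrays below it. KO minus WT was -0.46 (SE 0.207, 95% interval -0.91 to 0.003), or 1.37-fold, with an exact permutation p of 0.107. It was -0.27 without WT array 3 and -0.65 without KO arrays 1 and 2.

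Ggps1, geranylgeranyl diphosphate synthase, went the other way. It read 5.780, 5.651 and 5.872 in WT and 6.410, 6.032, 5.870, 6.046 and 6.179 in KO. KO array 3 was 0.002 below WT array 3, and its other 4 values exceeded those of WT. KO minus WT was 0.34 (SE 0.147, 95% interval 0.01 to 0.67), or 1.27-fold, with an exact permutation p of 0.0714. None of the 7 enzymes had all KO arrays above the WT arrays, which 1.99% of all clusters did. Ggps1 met that condition when arrays were centred on their medians (1.99% of all clusters), when quantile normalization was applied again (2.36%), without WT array 3 (4.80%) and without KO array 3 (3.01%).

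The difference between neighbouring steps was tested on the log2 ratio of the 2 genes within each array, which does not depend on the scaling of the array. Of 8 planned neighbouring pairs, 5 could be formed. Ggps1 relative to Fdps, the enzyme that makes its substrate, had log2 ratios of -1.14, -1.72 and -1.30 in WT and -0.10, -0.51, -0.76, -0.66 and -0.77 in KO. Every KO array had the higher ratio, and the difference in log2 ratio was 0.83. Its exact permutation p was 0.0179, or 0.0893 after Benjamini-Hochberg adjustment over the 5 pairs, and it lay between 0.66 and 0.95 when any single array was left out.

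In the other pairs the groups overlapped, and no pair passed an adjusted p of 0.05 in the exact permutation test. With a smallest possible p of 0.0179, a single separated pair among 5 could not pass, so this outcome is not informative for Ggps1 and Fdps. The log2 ratio of Fdft1 to Fdps differed by 0.03 between the groups, with an exact permutation p of 0.911, and changed sign when single arrays were left out (-0.09 to 0.21). That of Pmvk to Mvk was higher in KO by 0.49, with an exact permutation p of 0.107 and a range from 0.36 to 0.65 when single arrays were left out. That of Mvd to Pmvk differed by -0.32, with an exact permutation p of 0.339, and by -0.08 without WT array 3. Mvk relative to Hmgcs1 differed by 0.17, with an exact permutation p of 0.482, and by 0.05 without KO array 5. At the farnesyl diphosphate branch point the log2 ratio of Ggps1 to Fdft1, computed after the values were seen and not tested, was -2.54, -2.98 and -3.15 in WT and -2.03, -2.53, -2.31, -1.81 and -1.80 in KO. WT array 1 and KO array 2 were the closest pair, 0.01 or less apart, and each KO array was on the higher side.

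Variation within a genotype was described next. After each genotype's mean was subtracted, 14 of the 15 pairs among the 6 enzymes on the route to squalene had a Pearson r above 0 over the 8 arrays, with a median of 0.504 and a range from -0.201 to 0.829. Over all pairs of the 23521 clusters, 50.2% had an r above 0. Hmgcs1 and Mvd had the highest r and Fdps and Fdft1 the lowest. The 6 pairs with Ggps1 had a median r of 0.284. These values come from the same 8 arrays, so effects of single arrays can be shared by the genes. How the arrays were hybridised is not stated, and no p is given.

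WT array 1 had the lowest value of the 3 WT arrays for each of the 6 enzymes on the route to squalene, and KO array 5 had the highest KO value for 4 of them. The mean of these 6 enzymes was 6.502, 6.960 and 7.05 in WT and 6.32, 6.35, 6.13, 6.15 and 6.54 in KO, so that KO array 5 lay above WT array 1. Without WT array 1, 4 enzymes (Hmgcs1, Mvd, Fdps and Fdft1) had all KO arrays below the WT arrays, as did 5.61% of all clusters on the same arrays. Without KO array 5 there were 3 (Hmgcs1, Mvk and Fdps), beside 4.81% of all clusters. Without KO arrays 1 and 2 there were 2 (Hmgcs1 and Fdft1), beside 6.17% of all clusters. In the 6 arrays other than these, Hmgcs1 differed by -0.88 and Ggps1 by 0.26 (log2).

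**Figure D3:**
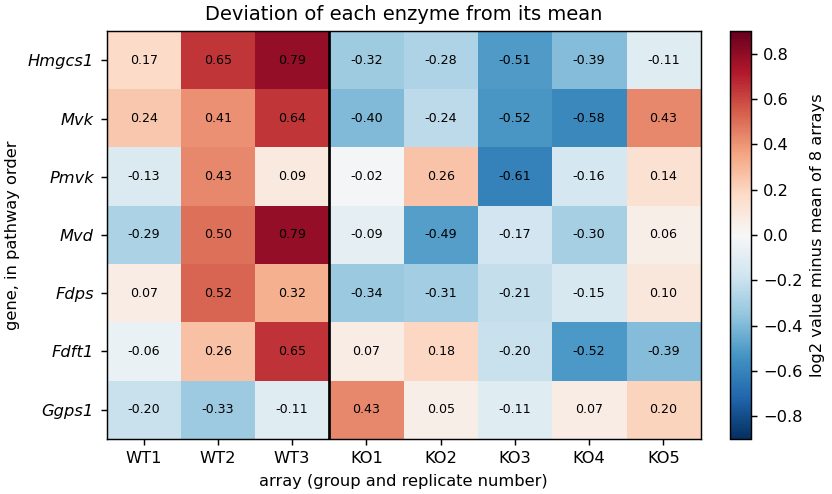
Log2 value minus the mean of the 8 arrays (colour and printed number) for each enzyme in pathway order (rows) and each array (columns; a line separates WT from KO). WT arrays 2 and 3 are above the mean for all enzymes except Ggps1, WT array 1 is above it for Hmgcs1, Mvk and Fdps and below it for the rest, and KO array 5 is below it for Hmgcs1 and Fdft1 and above it for the other 5 enzymes, by 0.43 for Mvk.

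The genes whose variation within genotypes was most like the mean of the 7 enzymes were taken from 7473 other genes with a mean of at least 5. They were Mapre1, a microtubule end-binding protein (r = 0.964), the phospholipase Pla1a (0.960), Acap2 (0.958), Atp5e, a subunit of ATP synthase (0.955), the splicing factor Sf1 (0.952) and the peptidase Dnpep (0.95). These genes were picked for the highest r of 7473 over 8 arrays, so high values were fixed by the choice. No link to the pathway was tested. None of the genes picked belongs to the lists of sterol and isoprenoid genes. Their log2 differences between the groups lay between -0.27 for Acap2 and 0.20 for Pla1a.

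Beyond squalene, 9 of 10 measured enzymes of sterol synthesis were lower in KO and 1 higher, with a median log2 difference of -0.31. None passed limma's adjusted threshold, and 3 were lower at an unadjusted p under 0.05, where 3.32% of all clusters were. Sqle, squalene epoxidase, which uses the product of Fdft1, read 5.91, 7.02 and 6.84 in WT and 5.67, 5.73, 5.84, 5.40 and 6.07 in KO. WT array 1 was again the low one, and KO array 5 read above it. The log2 difference of Sqle was -0.85 (SE 0.247), and that of Cyp51, lanosterol demethylase, was -0.69 (SE 0.179). Both overlapped between the groups.

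Among 7 measured genes of sterol sensing and uptake, 6 were lower and 1 higher, with a median log2 difference of -0.18 and none past the adjusted threshold. Stard4, a carrier of sterols between membranes, read 5.66, 6.57 and 6.46 in WT and 5.34, 5.80, 5.45, 5.31 and 4.86 in KO. WT array 1 was the lowest of its group, and KO array 2 read above it. The log2 difference of Stard4 was -0.88 (SE 0.246). Scap, which escorts SREBPs out of the endoplasmic reticulum, was the higher one, at 8.26, 8.03 and 8.11 in WT and 8.64, 8.49, 8.57, 8.66 and 8.19 in KO. Only KO array 5 reached into the WT range, and the log2 difference was 0.38 (SE 0.145). Scap had 2 clusters, and these values are those of the brighter one. The other cluster gave a log2 difference of 0.36 with a larger SE of 0.22.

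Genes that use isoprenoids for dolichol, ubiquinone, haem A, tRNA or protein prenylation were split, with 9 of 15 lower and 6 higher, a median log2 difference of -0.07 and none past the adjusted threshold. Rce1, the protease that trims prenylated proteins, read 4.92, 4.82 and 4.69 in WT and 5.26, 5.32, 5.37, 5.05 and 5.37 in KO. All KO arrays lay above the WT arrays, as in 1.99% of all clusters. The log2 difference was 0.47 (SE 0.131), with an exact permutation p of 0.0179 and an adjusted p of 0.795 by limma. Rce1 was named for the smallest limma p of its list, so its exact p is not separate support. Trit1, the tRNA isopentenyltransferase, had a log2 difference of -0.24 (SE 0.162).

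Supply of acetyl-CoA and acetoacetyl-CoA was covered by 6 genes, 2 lower and 4 higher, with a median log2 difference of 0.04 that was -0.07 without WT array 1 and -0.06 without KO arrays 1 and 2. Aacs, which activates acetoacetate in the cytosol and so provides the substrate of Hmgcs1 from ketone bodies, read 5.60, 5.68 and 5.66 in WT and 6.18, 6.26, 6.08, 6.19 and 6.06 in KO. The groups did not overlap and both were tight, with SDs of 0.0424 and 0.0824. All KO arrays lay above WT in 1.99% of all clusters. The log2 difference of Aacs was 0.51 (SE 0.117), with an exact permutation p of 0.0179 and an adjusted p of 0.795 by limma. Aacs was also named for the smallest limma p of its list, so its exact p is not separate support. Acat1, the mitochondrial thiolase, had a log2 difference of -0.18 (SE 0.133).

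Acat3, a close relative of Acat2, was uneven among the KO arrays, at 8.24, 8.42, 7.52, 6.98 and 6.56, against 7.01, 7.78 and 7.76 in WT. KO arrays 1 and 2 were the highest of all, and the log2 difference of 0.03 (SE 0.401) became -0.50 without them. Of the genes around ketone bodies and the relatives of Idi1, Bdh1, a ketone body dehydrogenase, had a log2 difference of -0.29 (SE 0.215). Idi2, the relative of Idi1, was dim, with a mean of 2.92, and its pair of clusters disagreed, with log2 differences of 0.93 and -0.24.

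**Figure D4:**
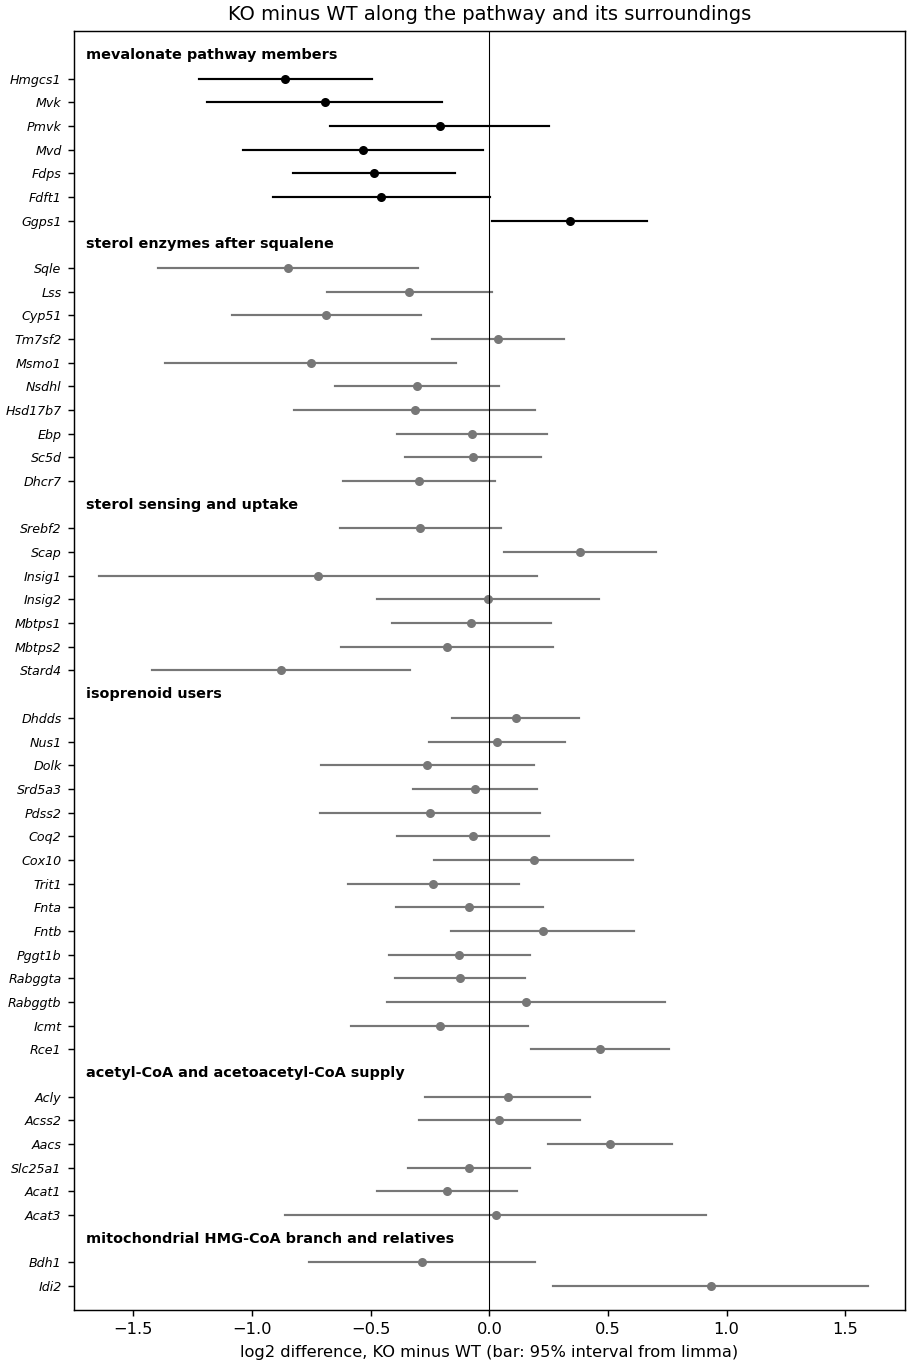
KO minus WT log2 difference (x axis, point) with limma's 95% interval (bar) for the 7 measured enzymes (black) and the measured genes of the other lists (grey), in list order. Intervals lie wholly below 0 for Hmgcs1, Mvk, Mvd, Fdps, Sqle, Cyp51, Msmo1 and Stard4 and wholly above 0 for Ggps1, Scap, Rce1, Aacs and Idi2, and no gene shown passed the adjusted threshold.

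In whole tissue, fewer cells of a type and less RNA per cell cannot be told apart. Hepatocyte markers (Alb, Ttr, Apoa1, Cps1, Serpina1c and Hnf4a) were abundant in all arrays, with a list mean from 11.6 to 11.7 in WT and from 11.5 to 11.8 in KO. The 6 macrophage markers had a mean from 5.57 to 6.04 in WT and from 5.29 to 6.48 in KO. The 5 markers of sinusoidal endothelium had a mean from 7.31 to 7.33 in WT and from 7.35 to 7.43 in KO, a separation carried by Lyve1 (log2 difference 0.65, SE 0.164), since the other 4 markers differed by -0.26 to 0.01. The 5 stellate markers had a mean from 6.28 to 6.36 in WT and from 6.16 to 6.43 in KO, and the members differed in sign, with Lrat at -0.34, Dcn at -0.10, Reln at 0.03, Des at 0.04 and Col1a1 at 0.22 (log2 difference). The 4 measured cholangiocyte markers had a mean from 3.93 to 4.15 in WT and from 3.92 to 4.17 in KO. Neutrophil, B cell and T cell markers had list means of 3.15 or below in every array, near or under the array medians. No marker passed limma's adjusted threshold, and their part in the results on the enzymes was not tested.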

How the data were processed

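Liver RNA was measured on 1 Affymetrix Mouse Gene 2.0 ST array per sample. The authors deposited log2 expression values for 41345 transcript clusters. RMA and the oligo package are named per the submitters' processing notes, and Expression Console in the series text. No source used here gives versions, settings or the genome build. The log2 scale was read from the range of values, 0.409 to 13.27. RMA as usually run applies quantile normalization and median polish. Differences of dim clusters are compressed in such values. No detection call was used, so no value is shown to be above background.

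Groups came from the sample titles. Platform annotation gave 1 symbol to 23521 clusters and several to 1814, and 16010 were unnamed. Where a gene had several clusters, the brightest on average stood for it. KO was compared with WT in limma 3.58.1 (R 4.3.3, data.table version 1.17.8) with lmFit and eBayes, 6 residual degrees of freedom and Benjamini-Hochberg adjustment over the 23521 clusters. The fit was tested on simulated data. The 9 genes, the other lists and the rules were chosen with earlier results of these data known. Named are all measured enzymes, the 2 genes of each other list with the smallest p, relatives of the enzymes, and the 6 genes most like them within genotypes. Some listed genes are not reported here. Alternatives covered the prior, filter, clusters tested, normalization, array weights, replicate block and omitted arrays. No batch is named. Pairing was checked on the deviations of WT and KO arrays with the same number, which correlated at -0.048, 0.016 and 0.021 over clusters, so the numbers were not treated as pairs.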

Additional observations from a re-analysis of the deposited data

How the results depend on the processing

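No enzyme changed the sign of its difference under any of the alternatives run, and none passed the adjusted threshold in any of them. Mvk and Mvd have means under 5 and had no value with that filter, and taking the mean of a gene's clusters left the 7 enzymes as they were. The count of clusters past the threshold was 0 as reported, 3 with trend and robust priors, 1 with the filter on a mean of at least 5, 3 over all 41345 clusters and 1 with the replicate block. The replicate block compares arrays of the same number. KO arrays 4 and 5 have no WT array of their number, so they do not enter its differences. With this block, 6 of 7 enzymes were lower and no enzyme passed the adjusted threshold. The log2 difference was -0.91 for Hmgcs1, 0.34 for Ggps1 and -0.27 for Fdft1. Mvd and Ggps1 were then no longer under an unadjusted 0.05 (p of 0.0745 and 0.108 in limma). The number of enzymes with all KO arrays below WT was 1 to 4 when single arrays were left out and 2 without KO arrays 1 and 2. The number with all KO arrays above WT was 0 to 1 when single arrays were left out, 1 with arrays centred on their medians and 1 with quantile normalization again. Leaving out single arrays gave -0.09 to 0.21 for the log2 ratio of Fdft1 to Fdps and -0.22 to 0.28 for Acat3, which was -0.50 without KO arrays 1 and 2. The other cluster of Idi2 gave -0.24. The causes were not tested. With 3 and 5 arrays, the exact test of 5 pairs could not reach an adjusted p below 0.05 for a single separated pair.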

Other observations

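The spread of the enzymes differed from group to group. Among the WT arrays the SD of Mvd was larger than in 95.9% of all clusters, that of Fdft1 larger than in 82.1% and that of Hmgcs1 larger than in 77.5%. Fdps was at 58.6% and Mvk at 51.9% in WT. Among the KO arrays the SD of Hmgcs1 was larger than in 18.7% of clusters, that of Fdps larger than in 28.0% and that of Mvd larger than in 39.4%. By the same measure Fdft1 was at 65.1% in KO, and Mvk, through KO array 5, at 85.5%. Pmvk was wide in both groups, at 70.6% in WT and 74.3% in KO. Ggps1 was at 24.2% in WT and 36.9% in KO. The difference in spread was not tested.

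Insig1, which retains SREBPs in the endoplasmic reticulum and is itself a target of SREBP-2, was chosen after its values were seen. It read 7.87, 9.41 and 9.34 in WT and 8.38, 8.98, 8.39, 7.54 and 7.44 in KO, so WT array 1 was again far below the other WT arrays. KO array 5, which was high for most of the enzymes, had the lowest Insig1 value of all arrays. Msmo1, a sterol methyl oxidase chosen in the same way, read 5.94, 6.97 and 7.45 in WT and between 5.88 and 6.22 in KO, with a KO SD of 0.133 against 0.775 in WT.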
